A study of Mus musculus with 3 samples.

Results

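DNA methylation was described at 10 mouse genes whose products write, keep, read or remove methyl groups on cytosine: Dnmt1, Dnmt3a, Dnmt3b, Dnmt3l, Tet1, Tet2, Tet3, Uhrf1, Tdg and Zfp57. The genes were chosen by name, and all 10 were found among the 22367 protein-coding genes of the mm9 annotation. They hold 70 of the 70051 annotated transcript starts and, with 5 kb on each side, 2624 of the 8886492 bins of 200 bp that contain a CpG. The libraries were of 2 kinds. Whole genome bisulfite sequencing was done once, without a replicate, in REST knockout embryonic stem (ES) cells of strain Black Agouti 129, which lack a transcription factor that represses neuronal genes. CTCF ChIP-bisulfite sequencing, in which DNA bound by the zinc finger protein CTCF is immunoprecipitated and then bisulfite treated, was carried out on wild type ES cells, in 2 replicates, of strain Mixed (129-C57Bl/6). Each of those libraries pooled the DNA of several immunoprecipitations, and Drosophila DNA had been added as a carrier. ES cells were grown on feeder cells or on gelatine, and no library of wild type cells without immunoprecipitation was used here. Genotype, strain and assay therefore differ together and cannot be told apart, and the counts do not show whether REST was absent.

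In mammals, Dnmt3a and Dnmt3b place methyl groups on unmethylated CpGs with the help of the inactive cofactor Dnmt3l, and Dnmt1, guided by Uhrf1, copies them to the new strand after replication. The Tet enzymes oxidize 5-methylcytosine to 5-hydroxymethylcytosine and further forms, and Tdg cuts the most oxidized bases out so that repair restores an unmethylated cytosine. Zfp57 is a zinc finger protein that binds methylated imprinting control regions and protects them. Promoters rich in CpGs are mostly unmethylated in mammalian cells, CpG-poor DNA and the bodies of active genes are mostly methylated, and CTCF-bound CpG-poor sites often have intermediate levels.

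The REST knockout library held 273375318 observations, on average 12.8 per CpG of the genome, and ChIP-BisSeq replicates 1 and 2 held 13411280 and 25262179, or 0.628 and 1.18 per CpG. A methylation level is the share of observations read as methylated, summed over the CpGs of a window. It is given with its exact Clopper-Pearson 95% interval, which covers counting error only, since reads copied by PCR are not independent molecules. A read that crosses several CpGs also gives an observation at each of them. The intervals and the Fisher's exact tests below treat such linked observations as independent, so they overstate the precision. In the REST knockout library 38.5% of all observations fell on CpGs covered more than 100 times.

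In REST knockout cells the annotated starts of the 10 genes ranged from unmethylated to methylated. Levels from 10% to 50% were found at 3 starts in each of Dnmt3a, Dnmt3l, Tet1 and Zfp57. Windows of 500 bp on each side of a start had at least 10 observations at all 70 starts. Methylation was below 10% at 35 of the 70, where the share among all protein-coding genes was 45.7%, and above 50% at 23 of the 70, where it was 35.0%. Both shares were near that background. Starts within 500 bp of each other were joined, which left 40 groups, each represented by the value of its most upstream start. Of these, 12 were below 10% (32.7% of the groups of all genes) and 19 above 50% (47.8%). The CpG content of the window went with its methylation. The counts that follow are of single starts, whose windows overlap where starts are close, so some DNA enters more than once. Among windows with at least 30 CpGs, 32 of 34 were below 10% and 0 were above 50%, and the same shares over all genes were 81.2% and 1.87%. Among windows with fewer than 20 CpGs, 2 of 27 were below 10% and 16 above 50% (59.3%), beside 1.17% and 80.9% over all genes. Among the 9 windows with 20 to 29 CpGs, 1 was below 10% and 7 were above 50% (77.8%), beside 9.49% and 53.7% over all genes.

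**Figure D1:**
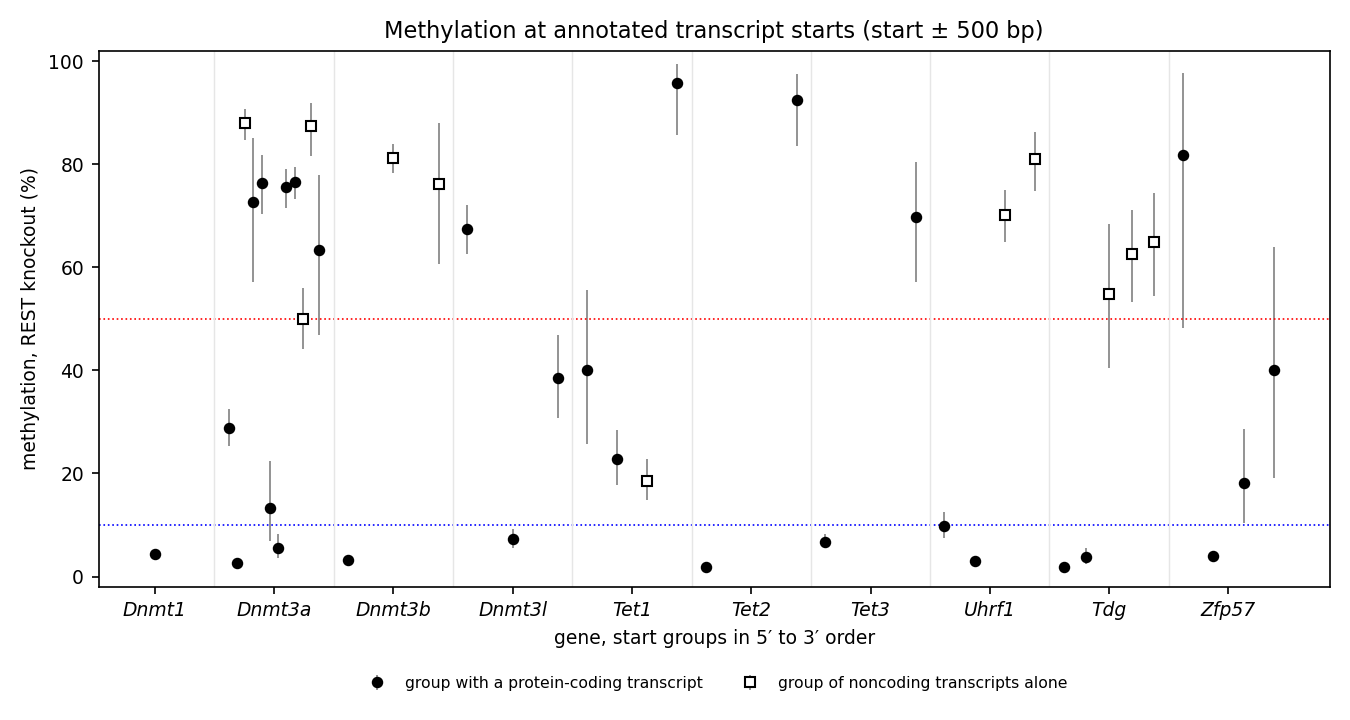
Methylation in REST knockout cells at the 40 start groups of the 10 genes, in percent of observations, ordered from 5′ to 3′ within each gene. Bars are 95% intervals of counting error, filled circles are groups that hold the start of a protein-coding transcript, open squares are groups of noncoding transcripts alone, and the dotted lines lie at 10% and 50%. Each value is that of the most upstream start of its group. Dnmt1, Dnmt3b, Tet2, Tet3, Uhrf1 and Tdg begin below 10%, and Tet1 has no group below 10%.

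The maintenance genes had low methylation at their 5′ end or, in Uhrf1, more clearly a short way downstream of it. Dnmt1, the maintenance methyltransferase, has 1 annotated start (chr9:20757317, minus strand) in a window of 54 CpGs, of which 85 of 1955 observations were methylated, 4.35% (3.49 to 5.35%). In the ChIP-BisSeq libraries the same window had 6 of 95 and 0 of 79 methylated observations. Uhrf1, which recognizes hemimethylated CpGs, began at 9.80% (54 of 551, interval 7.45 to 12.6%) at its most upstream start (chr17:56442744, plus strand). It reached 2.95% (117 of 3971) at the coding start 992 bp further on. Its 2 noncoding start groups, 9342 and 14705 bp downstream, were at 70.1% (235 of 335) and 81.0% (158 of 195). At the coding start of Uhrf1 992 bp downstream the ChIP-BisSeq replicates had 0 of 68 and 4 of 127 methylated observations. Both maintenance genes thus had a coding start that was low in all 3 libraries.

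The de novo methyltransferase genes contained more alternative starts. Dnmt3b began at 3.29% (105 of 3188) at chr2:153475186, and the ChIP-BisSeq replicates gave 6 of 97 and 4 of 221 methylated observations there. Its noncoding starts 16352 and 19920 bp downstream were at 81.2% (621 of 765) and 76.2% (32 of 42). Dnmt3l, which has no catalytic activity, was lower inside the gene than at its 5′ end. Its most upstream start, that of a noncoding transcript at chr10:77504692, was at 67.4% (265 of 393, interval 62.6 to 72.0%), and the coding start 340 bp downstream of it was at 32.5% (63 of 194). The pair of coding starts 7895 and 8012 bp downstream was at 7.28% (60 of 824, interval 5.60 to 9.27%) and 7.93% (61 of 769), and these were the 2 windows with fewer than 20 CpGs that were below 10%. Its coding start 13388 bp downstream was at 33.8% (24 of 71).

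Dnmt3a has 12 start groups over 108 kb, and they ranged from 2.56% to 88.0%. The most upstream start, of a noncoding transcript at chr12:3806007, lies at the edge of an unmethylated stretch and was at 28.8% (177 of 615). The 2 other starts of its group, 491 bp (noncoding) and 520 bp (coding) downstream, were at 3.67% (94 of 2562) and 3.70% (101 of 2727). The coding start 1023 bp downstream, with 158 CpGs in its window, was at 2.56% (130 of 5075). A further unmethylated start lay inside the gene, 85721 bp downstream at chr12:3891728, with 5.58% (24 of 430, interval 3.61 to 8.19%). The coding start at chr12:3885449 was at 13.3% (11 of 83), and 7 other groups were above 50%. The 150 bp in front of the upstream noncoding start, of the main coding start and of the internal unmethylated start are shown because they differ in CpG number, 1, 19 and 9. All are on the plus strand of mm9, from chr12:3805857-3806006, chr12:3806880-3807029 and chr12:3891578-3891727, with the dinucleotide CG in capitals. The dinucleotide CG, which reads the same on both strands, was present in 84.6% of such stretches over all start groups of protein-coding genes, with a median of 3.
Dnmt3a upstream noncoding start: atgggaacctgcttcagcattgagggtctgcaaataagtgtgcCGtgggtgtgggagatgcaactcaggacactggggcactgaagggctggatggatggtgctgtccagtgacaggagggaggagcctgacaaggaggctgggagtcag
Dnmt3a main coding start: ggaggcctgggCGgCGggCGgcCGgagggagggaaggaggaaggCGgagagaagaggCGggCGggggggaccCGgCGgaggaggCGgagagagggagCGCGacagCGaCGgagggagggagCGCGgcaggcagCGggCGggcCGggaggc
Dnmt3a internal start: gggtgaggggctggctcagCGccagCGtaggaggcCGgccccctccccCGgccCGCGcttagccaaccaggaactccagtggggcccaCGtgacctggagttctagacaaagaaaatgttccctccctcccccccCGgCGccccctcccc

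The Tet genes, which encode the dioxygenases that oxidize 5-methylcytosine, differed among themselves. Tet2 began at 1.86% (68 of 3664, interval 1.44 to 2.35%) in a window of 106 CpGs, and its internal coding start 55719 bp downstream was at 92.5% (62 of 67). The annotated 5′ end of Tet3 was at 6.73% (89 of 1323), with a coding start 3 bp downstream at 6.17% (80 of 1297), and its internal coding start 61776 bp downstream was at 69.7% (46 of 66). Tet1 had no start below 10%. Its most upstream start (chr10:62361866, minus strand) was at 40.0% with a wide interval (18 of 45, 25.7 to 55.7%), its next coding start 19104 bp downstream at 22.8% (57 of 250, 17.7 to 28.5%), its noncoding start 33814 bp downstream at 18.6% (73 of 392), and its last group, which holds 2 coding starts and the start of a transcript annotated for nonsense-mediated decay, at 95.8% (46 of 48). The 150 bp in front of the most upstream starts of Tet2 (chr3:133207355-133207504, minus strand) and Tet1 (chr10:62361867-62362016, minus strand) contain 30 and 2 CpGs. They are shown as the extremes of CpG content among the 5′ ends of the Tet genes, with CG in capitals.
Tet2 upstream of its 5′ end: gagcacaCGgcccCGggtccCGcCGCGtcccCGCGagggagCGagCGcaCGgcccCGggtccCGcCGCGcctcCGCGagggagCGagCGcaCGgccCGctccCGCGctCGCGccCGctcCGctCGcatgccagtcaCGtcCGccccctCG
Tet1 upstream of its 5′ end: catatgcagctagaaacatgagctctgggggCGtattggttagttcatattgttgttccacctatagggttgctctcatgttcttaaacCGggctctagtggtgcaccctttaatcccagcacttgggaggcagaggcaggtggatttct

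Neighboring bins of 200 bp below 10% in REST knockout cells formed 14 stretches of at least 3 such bins, with gaps of up to 1 bin allowed. The longest of them, in the intron between the first and second start groups of Tet1, was the 1 stretch without an annotated start within 500 bp. At chr10:62348001-62350600, over 2600 bp and 121 CpGs, 120 of 3442 observations were methylated in REST knockout cells, 3.49% (2.90 to 4.15%). ChIP-BisSeq replicates 1 and 2 had 2 of 115 (1.74%) and 13 of 257 (5.06%) methylated observations over the same DNA. No annotated start of any gene lies within 5 kb of it. Bins of 200 bp below 10% and more than 1 kb from every annotated start made up 36 of the 114 such low bins at the 10 genes, 31.6%, where the share over the genome was 39.7%. Tet1 held 18 of the 36 and Tet2 held 8. Of the other stretches, 2 by Dnmt3l held starts of the neighboring gene Aire and 1 at the 3′ flank of Uhrf1 held those of Kdm4b. The stretches at the 5′ ends of Dnmt3b and Tet3 also held starts of the oppositely transcribed noncoding genes 7530422B04Rik and B230319C09Rik.

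The base excision gene Tdg and the imprint regulator Zfp57 completed the list. Tdg, a DNA glycosylase, began at 1.86% (47 of 2527) and was at 3.78% (24 of 635) at a coding start 839 bp downstream. Its 3 noncoding start groups lay between 54.7% and 64.9%. ChIP-BisSeq replicates 1 and 2 had 0 of 52 and 19 of 108 (17.6%) methylated observations at the most upstream start of Tdg. At its coding start 839 bp downstream they had 4 of 22 (18.2%) and 14 of 33 (42.4%), so the low level there was not shared by these libraries. Zfp57 has 13 annotated starts in 4 groups, and 9 of the 13 were below 10%. Its most upstream start (chr17:37138108, plus strand) had 9 of 11 observations methylated, 81.8% (48.2 to 97.7%), so its level is poorly determined at this depth. In the ChIP-BisSeq libraries 8 of 8 and 11 of 14 observations were methylated there. The group 1319 bp downstream was at 3.98% (80 of 2011). The 150 bp before the most upstream start (chr17:37137958-37138107, plus strand) contain 0 CpGs, which 5 of the 40 start groups shared.
Zfp57 upstream of its 5′ end: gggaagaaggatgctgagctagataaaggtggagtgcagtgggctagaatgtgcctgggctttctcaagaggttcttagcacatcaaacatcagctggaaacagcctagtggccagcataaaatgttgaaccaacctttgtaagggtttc

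**Figure D2:**
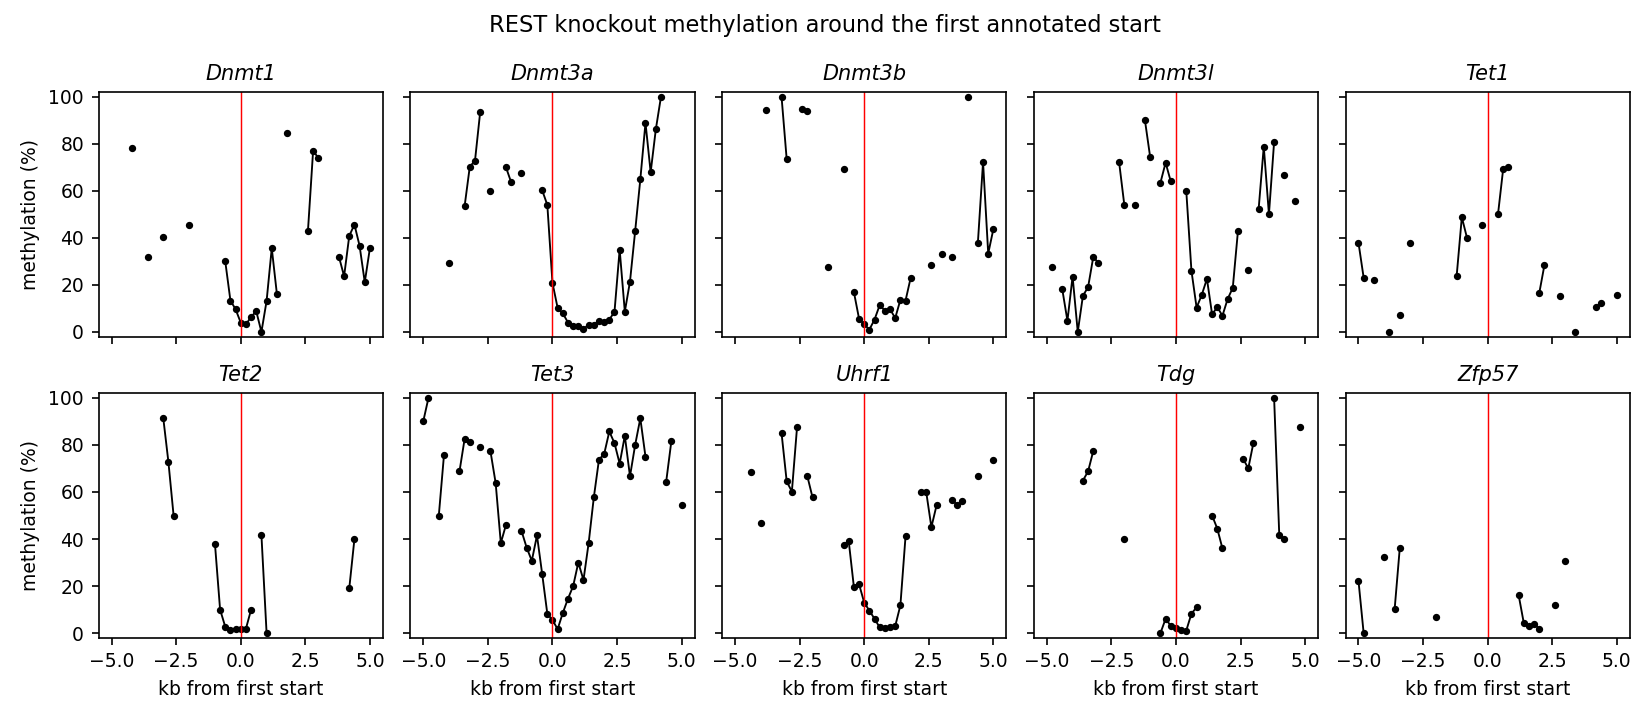
Methylation in REST knockout cells within 5 kb of the most upstream annotated start (red line) of each gene, in bins of 200 bp with at least 10 observations, with distances in the direction of transcription. Levels drop to below 10% at the start in Dnmt1, Dnmt3b, Tet2, Tet3 and Tdg, downstream of it in Dnmt3a, Dnmt3l, Uhrf1 and Zfp57, and Tet1 has no such valley at its start.

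The most upstream start of each later group was compared with the most upstream start of the gene by a two-sided Fisher's exact test of methylated and unmethylated observations, with Benjamini-Hochberg adjustment over the 18255 such pairs of all protein-coding genes. A pair was called at an adjusted p under 0.05 and a difference of at least 20 percentage points. The test compares DNA segments of 1 library, and other starts of a group do not enter it. Among 30 pairs of the 10 genes, 18 later groups were higher, 60.0% of the pairs beside 68.2% over all genes. Lower later groups numbered 7, 23.3% beside 6.43% over all genes. These 7 were in Dnmt3a (2 groups), Dnmt3l (2), Zfp57 (2) and Tet1 (1), and pairs of a gene share their upstream start. The coding start of Dnmt3l 7895 bp downstream was lower than the noncoding start at its 5′ end, with a difference of -60.1 percentage points (Fisher's exact test, adjusted p = 1.28e-106), and the internal unmethylated start of Dnmt3a was lower than the noncoding start at its 5′ end, with a difference of -23.2 percentage points (Fisher's exact test, adjusted p = 5.63e-23). Both calls in Dnmt3a were lost with the starts of protein-coding transcripts alone, where the upstream start of Dnmt3a was the one at 3.70%. The lower call in Tet1 and 1 of the higher calls in Dnmt3a were lost with windows of 250 bp. The second group of Zfp57 was lower, with a difference of -77.8 percentage points (Fisher's exact test, adjusted p = 3.20e-11), a comparison that rests on the 11 observations of the upstream window. Between the most upstream starts of the first and second groups of Tet1 the difference of -17.2 percentage points was under the limit. With the starts of protein-coding transcripts alone, 8 of 19 pairs were higher and 3 lower.

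Over the whole gene, from the first to the last annotated base, methylation in REST knockout cells ran from 10.6% in Zfp57 to 69.5% in Tet3. The median of the 10 genes was 38.4%, the median of all 21422 measured protein-coding genes was 52.6% with quartiles of 33.0% and 66.7%, and 7 of the 10 lay below that median. Dnmt1 (63.7%), Tet3 (69.5%) and Tet2 (52.7%) were the 3 above it. Uhrf1 (30.9%), Tdg (25.9%) and Zfp57 (10.6%), the 3 shortest of the genes at 9.47 to 21.0 kb, were below the lower quartile. Without the start windows these 3 were at 68.7%, 72.4% and 41.1%, and Dnmt3b was at 68.4% in place of 44.1%, so their place in the order depended on the start windows. Dnmt3a (42.0%), Dnmt3b (44.1%), Tet1 (34.7%) and Dnmt3l (33.2%) lay between the lower quartile and the median. In this order the counting intervals of neighbors overlapped for Uhrf1 and Dnmt3l and for Dnmt3l and Tet1. Without the start windows the pooled level of the 10 genes was 58.3% in place of 46.2%.

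The same sums were taken in the ChIP-BisSeq libraries, whose observations are spread over the CpGs of a gene in other proportions. Dnmt3l was lower there, with 16.3% (154 of 942) and 13.6% (210 of 1548) in replicates 1 and 2, and Dnmt3a was at 28.8% and 34.1%. In Dnmt1 (79.3% and 70.4%), Dnmt3b (63.4% and 50.4%), Tet1 (52.3% and 46.6%), Tet2 (71.4% and 59.3%), Tet3 (84.3% and 76.0%), Uhrf1 (49.6% and 46.4%) and Tdg (68.5% and 58.8%) both replicates were above the REST knockout level. For Tdg, the mean of the replicates was 63.6% ± 6.87 (SD, n = 2) beside 25.9%. Without the start windows the values were 97.3% (73 of 75) and 78.5% (106 of 135) beside 72.4% (581 of 803). All observations in Tdg numbered 146 and 262 in the replicates and 3064 in REST knockout cells. Removal of the start windows, chosen after seeing the data, left both replicates above REST knockout in 6 genes. They were below it in 2 (Dnmt3a and Dnmt3l) and on either side in Dnmt3b and Zfp57. Most observations left in Dnmt3l, 803 of 901 and 1278 of 1514, came from the CTCF-enriched stretch chr10:77506001-77506600, with 50 and 64 methylated. In Dnmt3a the enriched intron bin chr12:3871801-3872000, with 13 of 114 and 13 of 268 methylated, also stayed in these sums. Whether Dnmt3a and Dnmt3l are lower outside enriched bins was not tested. For Zfp57 the replicates fell on either side of the REST knockout level, with 2 of 36 and 51 of 174 methylated observations. Replicate 1 was above replicate 2 in 8 of the 10 genes. These gene-wide sums were not tested, since the libraries cover different CpGs.

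**Figure D3:**
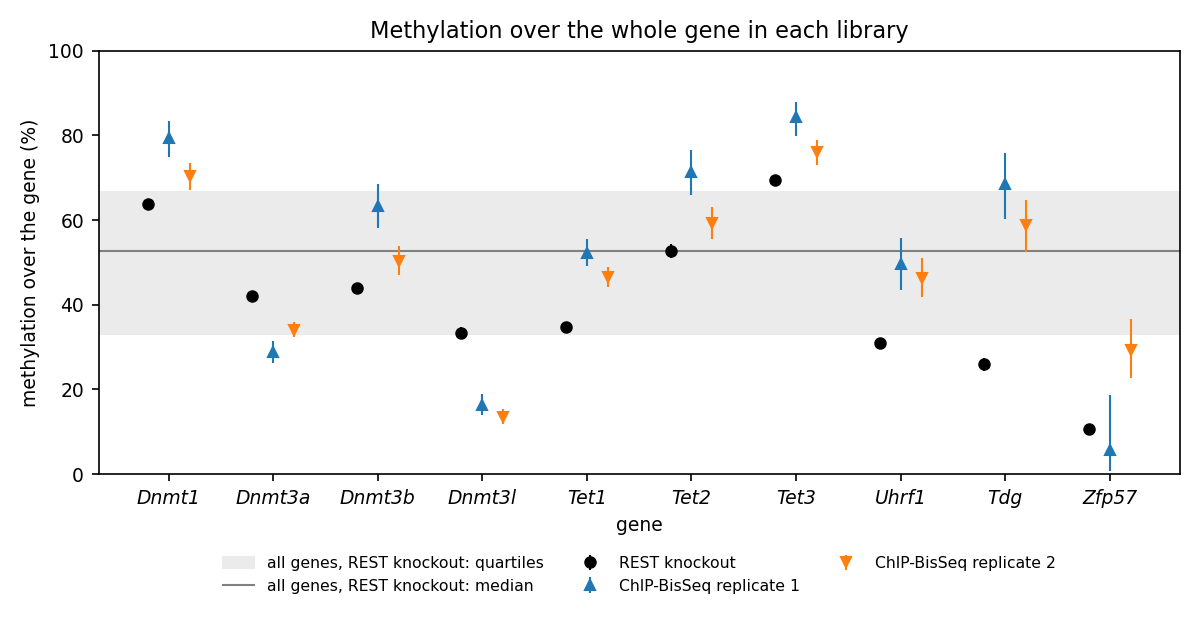
Methylation over each whole gene in the REST knockout library and both ChIP-BisSeq replicates, in percent of observations with 95% counting intervals, with the median and quartiles of all genes in the REST knockout library. Dnmt3a and Dnmt3l are lower in both replicates than in REST knockout cells, and 7 genes are higher in both.

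CTCF-covered DNA was defined as bins of 200 bp with at least 10 observations in each ChIP-BisSeq replicate. There were 72 such bins among the 2624 at the 10 genes, 2.74% beside 1.36% over the genome. Replicate 1 taken alone covered 114 bins and replicate 2 alone 245. Coverage also rises with CpG number, and 28 of the 72 lay within 500 bp of an annotated start. A bin was called enriched when its coverage per CpG was at least 5 times the mean of the library in both replicates. This rule favors bins with few CpGs, since 10 observations on 1 CpG already pass it in both replicates. In an intron of Dnmt1, 15 and 33 observations on 1 CpG gave 23.9 and 27.9 fold. At the start of Dnmt1, 66 and 22 observations on 19 CpGs gave 5.53 and 0.978 fold. Enriched bins numbered 21, 0.800% of the bins beside 0.665% over the genome, and 29.2% of the covered bins beside 48.8%. They were in 7 genes: Tet1 with 7, Dnmt3a with 6, Dnmt3l with 3, Dnmt3b with 2, and Dnmt1, Tet2 and Zfp57 with 1 each. Tet3, Uhrf1 and Tdg had covered bins but no enriched one. Coverage in REST knockout cells did not enter the rule. The enriched Dnmt3a bin at chr12:3817201-3817400, at 6.37 and 15.2 fold in replicates 1 and 2, was also at 4.40 fold in REST knockout cells.

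**Figure D4:**
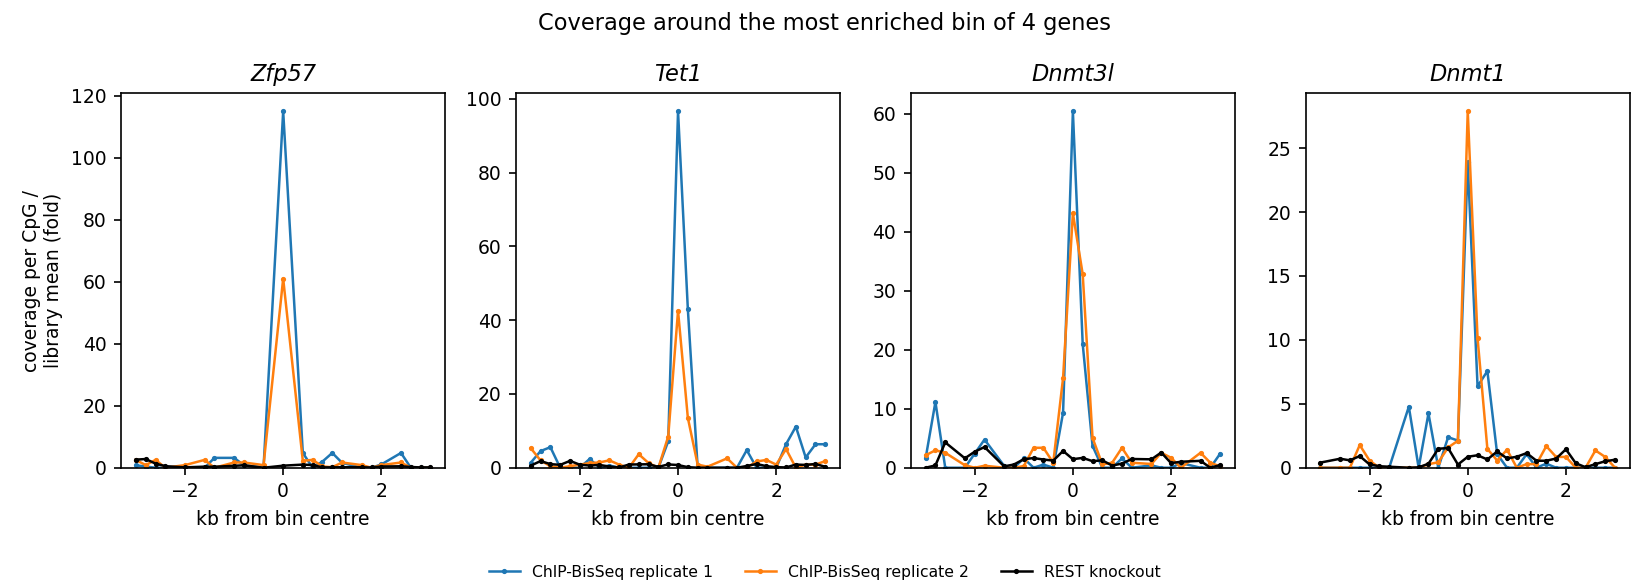
Coverage per CpG in bins of 200 bp divided by the mean of the library, within 3 kb of the most enriched bin of Zfp57, Tet1, Dnmt3l and Dnmt1, for both ChIP-BisSeq replicates and the REST knockout library. The peaks reach 115 and 61.0 fold in Zfp57 (replicates 1 and 2) and are absent from the REST knockout library, where the Zfp57 bin is at 0.664 fold.

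The most enriched bin lay 4007 bp upstream of the 5′ end of Zfp57, in intergenic DNA at chr17:37134001-37134200. Coverage per CpG there was 115 and 61.0 times the mean in replicates 1 and 2. In the ChIP-BisSeq replicates 15 of 289 (5.19%, interval 2.93 to 8.42%) and 14 of 289 (4.84%, interval 2.67 to 7.99%) observations were methylated, beside 11 of 34 (32.4%, interval 17.4 to 50.5%) in REST knockout cells. Summed over the bin, the replicates agreed within counting error. Both were lower than REST knockout (Fisher's exact test, adjusted p = 0.000216 and 0.000143). Of the 4 CpGs in the bin, the 3 inside the consensus-like stretch printed here carried most of the ChIP observations and had 3, 0 and 4 methylated of 7, 9 and 9 in REST knockout cells, so the REST knockout level rests on few observations. In replicate 1 the same CpGs had 1 of 88, 2 of 90 and 0 of 96 methylated observations, and in replicate 2 they had 6 of 95, 6 of 96 and 2 of 85. The remaining CpG had 12 of 15 methylated observations in replicate 1 and 0 of 13 in replicate 2. The near equal totals of the replicates thus hide differences in opposite directions at single CpGs. In the bin shifted by 100 bp, replicates 1 and 2 were at 1.09% and 5.07%, beside 28% in REST knockout cells. The bin is shown in mm9, plus strand, with CG in capitals, followed by its closest stretch to the CTCF consensus (chr17:37134132-37134151, plus strand, 13 consensus positions in capitals), which differs from it at 1 position and holds those 3 CpGs.
Zfp57 bin: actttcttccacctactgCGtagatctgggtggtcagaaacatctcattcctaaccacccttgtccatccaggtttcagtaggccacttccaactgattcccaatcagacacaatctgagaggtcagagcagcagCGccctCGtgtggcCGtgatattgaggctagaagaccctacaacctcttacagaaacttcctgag
Zfp57 closest stretch: gcagCGCCCTCGTGTGGccg

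Tet1 held the next 2 most enriched bins. At chr10:62344001-62344200, in the intron 1338 bp upstream of its second coding start, coverage was 96.6 and 42.5 times the mean. Methylation was 37.9% (69 of 182) in replicate 1, 11.3% (17 of 151) in replicate 2 and 39.3% (11 of 28) in REST knockout cells. The replicates differed by more than counting error (Fisher's exact test, adjusted p = 2.62e-06), so the level of the bound DNA is not settled by these libraries. Its closest stretch differs from the consensus at 3 positions. At chr10:62325401-62325600, with 1 CpG, coverage was 60.5 and 56.6 times the mean and 20 of 38 (52.6%) and 39 of 67 (58.2%) observations were methylated, beside 5 of 15 in REST knockout cells. An exact match to the consensus (chr10:62325381-62325400, plus strand) ends at the base before this bin and is not counted in it. The bin next to chr10:62344001-62344200 had 43.0 and 13.5 times the mean coverage, and the other 4 enriched bins of Tet1 were between 5.57 and 14.4 fold.

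At Dnmt3l the enriched DNA spanned 3 neighboring bins in an intron, at chr10:77506001-77506600, about the start of Aire, which runs in the opposite direction and encodes a regulator of tissue antigens in the thymus. The central bin had 60.4 and 43.1 times the mean coverage in replicates 1 and 2. Methylation was 5.27% (36 of 683) and 5.01% (46 of 919) beside 9.85% (33 of 335) in REST knockout cells, and the difference passed the adjusted p but not the limit of 20 percentage points (Fisher's exact test, adjusted p = 0.0429 and 0.0258). This was 1 of 5 enriched bins with an exact match to the CTCF consensus, searched on both strands. Each match was assigned to the bin that holds its center, which leaves out a match just beyond a bin edge. Such matches were present in 5 of 21 enriched bins (20.1% over the genome) and in 6 of 72 covered bins (10.5%). They were present in 40 of the 2624 bins with a CpG (1.52%, beside 0.578% over the genome). The other 4 matches, 3 at Tet1 and 1 in front of Tet2, contain the letters CGCCCTCTTCTGG or TGCCCTCTTCTGG, which were 9 and 36 of the 50 matches at the 10 genes. Over the genome they made up 15.1% and 58.2% of 66204 matches. The stretches below are the match of Dnmt3l (chr10:77506290-77506309, plus strand), that of Tet1 (chr10:62297862-62297881, plus strand) and that of Tet2 (chr3:133210906-133210925, plus strand), with the 13 consensus positions in capitals.
Dnmt3l match: tcggCGCCCCCTGCTGGccc
Tet1 match: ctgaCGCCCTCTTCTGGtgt
Tet2 match: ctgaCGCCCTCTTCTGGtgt

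The other enriched bins covered the range of methylation. In front of Tet2, 3546 bp upstream of its 5′ end, 18 of 18 and 38 of 39 observations were methylated, and REST knockout cells gave 2 observations. In an intron of Dnmt1 (chr9:20720601-20720800) 13 of 15 and 23 of 33 were methylated at 23.9 and 27.9 fold coverage, beside 6 of 11 in REST knockout cells. Dnmt3b had 19 of 27 and 44 of 55 methylated at chr2:153494601-153494800, where REST knockout cells had 1 of 7. In Dnmt3a, a pair of adjoining bins in an intron (chr12:3871601-3872000) was low in both replicates. Its second bin had 13 of 114 (11.4%) and 13 of 268 (4.85%) methylated beside 33 of 133 (24.8%), with both replicates lower than REST knockout (Fisher's exact test, adjusted p = 0.0453 and 9.22e-07) by 13.4 and just under 20 percentage points. At the most upstream starts of Dnmt3a the enriched bins had 4 of 172 and 10 of 188, and 0 of 218 and 6 of 150, methylated observations.

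Across the covered bins of the 10 genes, 33 of 72 were below 10% in both replicates (33.5% over the genome) and 13 were above 50% in both (22.3%). Of the 66 with at least 10 observations in REST knockout cells, 1 was lower in both replicates, beside 2.81% over the genome, and it was the bin upstream of Zfp57. By the same rule, a Fisher's exact test with Benjamini-Hochberg adjustment over 99124 bins and a limit of 20 percentage points, 0 were higher, beside 2.21%. With the limit of 20 percentage points kept and an unadjusted p under 0.05 in both replicates, the counts were 0 higher and 2 lower. The share over the genome was not taken for this looser rule, so these counts have no background. The second lower one lay in the unmethylated stretch of Tet1 (0 of 10 and 0 of 17 beside 6 of 12). With bins shifted by 100 bp, a bin 4 kb upstream of Tet1 was called higher, at 100% and 58.3% beside 19.5%. With 1 replicate in place of both, the calls were 16 of 103 for replicate 1, of which 15 were higher. For replicate 2 they were 22 of 219, of which 17 were higher. Over the genome 17.1% and 10.7% of bins were called in either direction, and the split by direction was not taken there. The bin upstream of Zfp57 was called lower by each replicate alone.

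**Figure D5:**
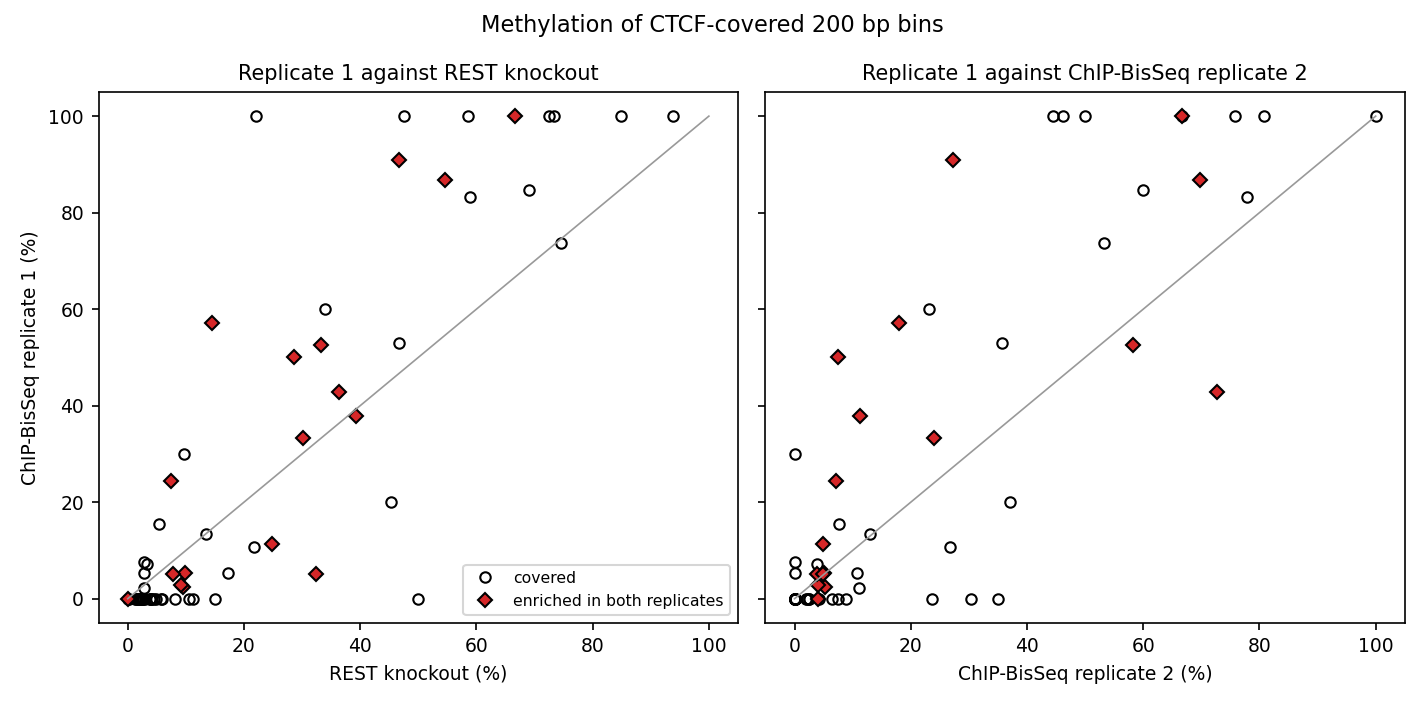
Methylation of the 66 CTCF-covered bins with at least 10 observations in every library, in percent, for ChIP-BisSeq replicate 1 against the REST knockout library (left) and against replicate 2 (right). Diamonds are bins enriched in both replicates, and the line marks equal values. Bins lie on both sides of the line in both panels.

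The spread between replicates set the limit of these comparisons. The replicates differed at 9 of the 72 bins (Fisher's exact test, adjusted p under 0.05), with replicate 1 higher at 7 (9.53% over the genome) and replicate 2 higher at 2 (4.26%). In 9 bins every one of 10 to 24 observations of replicate 1 was methylated, and this was so in 1 bin of replicate 2. At the intron bin of Uhrf1 2556 bp from its 5′ end, for example, 17 of 17 observations were methylated in replicate 1, 8 of 18 in replicate 2 and 40 of 84 in REST knockout cells. Replicate 1 was also less deep, at 0.628 observations per CpG beside 1.18 in replicate 2. The share of fully methylated bins over the genome was not taken. The 2 bins where replicate 2 was higher were at the upstream starts of Dnmt3a. In the one near its main coding start replicate 2 had 37 of 122 methylated observations, replicate 1 had 0 of 22 and REST knockout cells had 29 of 1204.

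Other genes of the same pathway were read at their most upstream start. A list of 36 genes covered the Uhrf1 paralog and other maintenance factors, methyl-CpG binding proteins, base excision repair and methyl donor metabolism. All 36 were measured, 23 were below 10%, 9 were between and 4 were above 50%, with a median of 5.15% beside 8.91% for all genes. Among those above 50% were Zfp445, a second imprint regulator (147 of 165, 89.1%), Smug1, a uracil glycosylase (190 of 263, 72.2%), and Dppa3, a germ cell and oocyte factor (93 of 180, 51.7%). Among the 10 genes, 6 of 10 most upstream starts were below 10% (52.4% of all genes) and 2 above 50% (28.0%).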

How the data were processed

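Whole genome bisulfite sequencing of REST knockout ES cells (1 library) and CTCF ChIP-bisulfite sequencing of wild type ES cells (2 replicates) were used. The authors deposited raw counts per CpG, observations and methylated observations, without normalization. Reads had been aligned to mm9, and the submitters' processing notes name Bowtie 0.10.0.1. Removal of duplicates is not given in the sources used here. The CTCF libraries had been made from immunoprecipitated DNA. A CpG that was not listed was given a coverage of 0.

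Counts were indexed on the 21342492 CpGs of mm9 with Python 3.11.15, NumPy 2.4.6, pandas 2.3.3, SciPy 1.17.1 and Numba 0.67.0, and figures were drawn with matplotlib 3.10.9. Genes, starts and exons are from GENCODE vM1 on the same build. Windows and bins needed at least 10 observations. Fisher's exact tests were two-sided and adjusted by Benjamini-Hochberg over the whole genome, and were tested on simulated data. Every annotated start and covered bin of the 10 genes enters the counts. The values of 1 gene above 50% in the list of 36 are not reported here. The genes, the list of 36 and the rules were chosen with earlier results of these data known. Replicates are separate samples by their labels, and the sources do not say whether the cultures were separate, so their spread may be technical. The alternatives were other windows, coverage limits, bin positions and transcripts, and each replicate left out.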

Additional observations from a re-analysis of the deposited data

How the results depend on the processing

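Most counts stayed within 1.5 times their value under the alternatives. With the starts of protein-coding transcripts alone, 11 start windows were above 50% in place of 23 and 11 pairs of starts were called in place of 25. The pooled methylation of the 10 genes, 46.2%, was 58.3% without the start windows, with 9 of the 10 genes outside their counting interval (Tdg moved most in points, from 25.9% to 72.4%), and 49.1% as a mean over CpGs, with 8 outside. With at least 20 observations in each replicate, 29 bins were covered in place of 72. The 1 bin called different between ChIP-BisSeq and REST knockout became 2 with bins shifted by 100 bp and 2 with a limit of 10 percentage points, which added the intron bin of Dnmt3a. Leaving out 1 replicate gave 114 to 245 covered bins and 16 to 22 called bins. The bin upstream of Zfp57, or the shifted bin that overlaps it, was called lower under every alternative. The cause of these shifts was not tested beyond the smaller number of transcripts, observations or libraries that each alternative keeps. No paired analysis was possible, because the design holds no pairs. The replicate number of the single REST knockout library is only a name and ties it to no ChIP-BisSeq replicate. Depth limits bins near 10 observations, and the REST knockout values have no replicate.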
